A study of Rattus norvegicus with 12 samples.

Results

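The bZIP and immediate early transcription factors were examined in the choroid plexus of the rat, with 8 genes named as members, namely CEBPB, CREM, JUND, JUNB, JUN, FOS, ATF4 and XBP1. A member entered when the study's tables of all genes or of called genes paired its symbol with an Ensembl identifier. This was so for 5 of the 8 members out of 32883 genes in the files, namely ATF4, JUND, XBP1, CEBPB and CREM. JUN, JUNB and FOS had no paired identifier and are not analysed here. ATF4 and JUND were paired through the table of all genes, which was held in part and reached genes with a light phase mean of at least 50.6 TPM. ATF4 was also in the table of genes that the study had called. XBP1, CEBPB and CREM were paired only through a table of genes that the study had called from these same libraries, so their phase differences are given as a description and are no independent evidence.

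The choroid plexus lines the brain ventricles and secretes the cerebrospinal fluid, and the study asked whether its transcripts differ between the light and the dark phase. Whole choroid plexus of the lateral ventricles and the fourth ventricle came from male Sprague-Dawley rats aged 9 weeks, with free access to food and water and no treatment named beyond the ketamine and xylazine anesthesia that all received before the dissection. The light phase group was taken at zeitgeber time 8 h (ZT8) and the dark phase group at ZT20, with 6 rats in each phase and 1 library per rat. The dark phase rats were handled in darkness under a red lamp. Expression was read as TPM, the share of all transcripts scaled by transcript length and library total, so levels of different genes can be set side by side. The files give no read counts, and from the steps of low FPKM values (fragments per transcript length and library total) in 345 genes the depth of the libraries relative to their mean was estimated at 0.884 to 1.37 for light phase rats and 0.881 to 1.09 for dark phase rats.

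All 7 choroid plexus epithelial markers were present in every library, with a summed level of 258610 to 309370 TPM at ZT8 and 291944 to 315148 TPM at ZT20. TTR, the transthyretin gene, made up 98.1 to 98.4% of this sum, and the other 6 markers summed to 4882 to 5190 TPM in light phase rats and 5026 to 5573 TPM in dark phase rats. Light phase replicate 2 stood apart, with the lowest TTR share of all TPM (25.4%, against 28.7 to 31.0% in the other 11 libraries), a sum of the other 6 epithelial markers within the range of its phase (4900 TPM), and the highest sums of its phase for endothelial (138.6 TPM over 2 of 6 markers), mural (324.6 TPM, 1 of 4 markers), macrophage (394.9 TPM, 2 of 7 markers) and erythroid markers (5535 TPM, 1 of 3 markers). Its fibroblast sum was the lowest of its phase at 135.5 TPM over 2 of 6 markers. Of 5 neuronal markers 0 were paired. The total FPKM divided by the total TPM, a ratio that depends on the length of the transcripts measured, was 0.953 to 0.987 for light phase rats and 0.934 to 0.960 for dark phase rats. In whole tissue, fewer cells of a type and less RNA per cell cannot be told apart.

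Transcription factors with a basic leucine zipper (bZIP) bind DNA as dimers. Immediate early genes are those that cells transcribe within minutes of a stimulus, without new protein synthesis, and FOS, JUN and JUNB belong to both groups. ATF4 is translated when the initiation factor eIF2 is phosphorylated and drives amino acid uptake and synthesis. XBP1 is activated when the sensor IRE1 splices its mRNA under load in the endoplasmic reticulum (ER), and it raises ER chaperones together with ATF6. CEBPB acts in acute phase and metabolic responses. CREM is a cAMP-responsive factor, and its short isoform ICER represses transcription after cAMP signaling. JUND is the JUN family member that is expressed most steadily in many tissues. Values per gene do not separate the spliced from the unspliced XBP1 mRNA, nor ICER from full-length CREM.

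The promoter windows of the members are shown because several of these factors are known to bind the sites they carry. The 250 bases before each annotated start were taken from RefSeq (rat build GRCr8), on the strand of the gene, and 7 windows were found for the 5 members. Both strands were searched for the cAMP response element (CRE, TGACGTCA), its core (TGACG, also inside every CRE), the AP-1 site (TGANTCA), the E-box (CACGTG), the D-box (TTATGTAA), a CEBP site (TTGCNNCAA) and the ER stress response element (ERSE, CCAAT and CCACG with 9 bases of any kind between them). Capitals mark the matches.
XBP1 (chr14:84604373-84604622, plus strand): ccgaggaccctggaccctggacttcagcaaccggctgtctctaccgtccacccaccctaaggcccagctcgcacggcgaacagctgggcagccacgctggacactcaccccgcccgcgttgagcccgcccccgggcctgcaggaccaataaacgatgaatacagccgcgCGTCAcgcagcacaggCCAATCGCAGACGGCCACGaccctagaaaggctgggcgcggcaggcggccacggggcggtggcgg
CEBPB (chr3:176816755-176817004, plus strand): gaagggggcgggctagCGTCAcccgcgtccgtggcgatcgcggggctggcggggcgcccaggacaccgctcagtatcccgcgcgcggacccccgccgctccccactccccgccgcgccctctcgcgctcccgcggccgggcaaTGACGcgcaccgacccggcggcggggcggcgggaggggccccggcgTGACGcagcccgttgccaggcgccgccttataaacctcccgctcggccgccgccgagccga
ATF4 (chr7:113684431-113684680, plus strand): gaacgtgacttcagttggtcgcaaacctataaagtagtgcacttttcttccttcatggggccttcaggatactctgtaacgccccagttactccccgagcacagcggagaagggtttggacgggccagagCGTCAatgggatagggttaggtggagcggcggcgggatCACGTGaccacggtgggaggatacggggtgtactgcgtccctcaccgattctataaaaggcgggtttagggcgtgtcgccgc
JUND (chr16:18769772-18770021, minus strand): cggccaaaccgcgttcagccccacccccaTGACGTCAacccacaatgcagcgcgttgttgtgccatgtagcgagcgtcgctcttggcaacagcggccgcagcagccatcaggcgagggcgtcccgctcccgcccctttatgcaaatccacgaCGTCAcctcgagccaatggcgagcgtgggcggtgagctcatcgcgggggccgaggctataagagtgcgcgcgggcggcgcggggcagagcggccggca
CREM start 2 (chr17:58984547-58984796, plus strand): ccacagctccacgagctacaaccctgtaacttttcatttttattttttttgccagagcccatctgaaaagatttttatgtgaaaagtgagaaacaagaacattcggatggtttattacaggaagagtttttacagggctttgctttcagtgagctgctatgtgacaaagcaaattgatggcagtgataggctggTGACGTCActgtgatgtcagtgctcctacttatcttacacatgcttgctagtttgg
CREM start 3 (chr17:58985240-58985489, plus strand): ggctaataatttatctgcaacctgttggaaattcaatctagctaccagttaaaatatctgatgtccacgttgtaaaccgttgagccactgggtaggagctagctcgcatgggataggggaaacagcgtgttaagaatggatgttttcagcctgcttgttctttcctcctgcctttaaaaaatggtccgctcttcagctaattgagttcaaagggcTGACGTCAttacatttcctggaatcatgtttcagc

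The XBP1 window held an ERSE that begins 65 bases before the start, an element found in 22 of 33469 windows of this length (0.0657%). A CRE lay in both downstream CREM windows, 56 and 35 bases before their starts, and in the JUND window 221 bases before the start, against 1.59% of all windows. The first CREM window (chr17:58933816-58934065, plus strand, not printed) held 2 cores and no CRE. The CEBPB window held 3 CRE cores, the XBP1 and ATF4 windows 1 each, and JUND 1 more beside its CRE, against 18.2% of all windows with at least 1 core. The ATF4 window also held an E-box 82 bases before the start, against 5.59% of all windows. The AP-1 site (6.34% of windows), the D-box (0.828%) and the CEBP site (1.75%) had no match in the 7 windows. The GC content was 69.6% in the XBP1 window and 40.8 and 43.2% in the downstream CREM windows, where the median of all windows was 51.2%, and it was highest of the 7 in the CEBPB window. A match describes the letters and not binding.

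The 5 members kept the same order of level in each of the 12 libraries, ATF4 highest, followed by JUND, XBP1, CEBPB and CREM. On the TPM scale, the mean of ATF4 was 2.24 times that of JUND at ZT8 and 2.13 times at ZT20. JUND stood 1.80 times above XBP1 at ZT8 and 1.24 times at ZT20. XBP1 stood 1.74 and 1.46 times above CEBPB, and CEBPB 1.89 and 2.45 times above CREM. The XBP1 and CEBPB values overlapped across rats within each phase, while every other pair of neighbours had separate ranges within each phase. The spread across rats was smallest for the abundant pair, with a coefficient of variation (SD over mean) of 9.44% at ZT8 and 4.32% at ZT20 for ATF4. XBP1 varied most in the light phase (25.4%) and CREM most at ZT20 (22.7%).

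**Figure D1:**
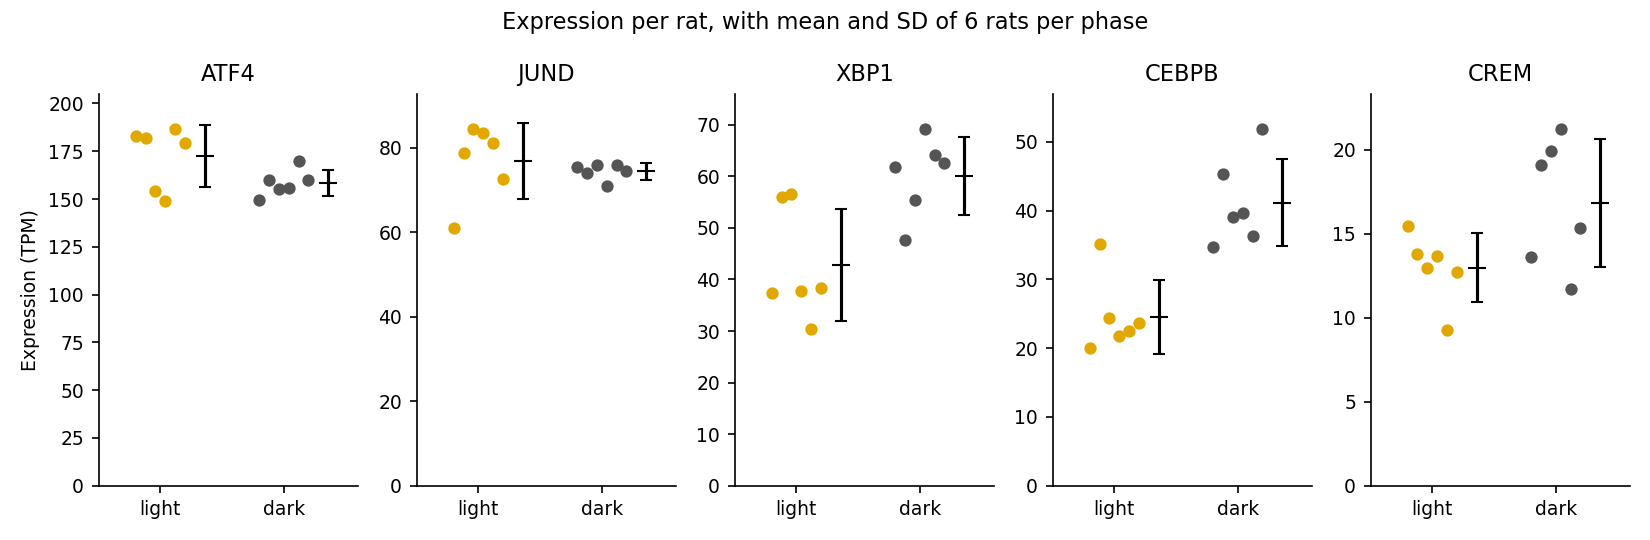
TPM (y axis, linear from 0, a separate scale per gene) of the 5 members in each of 6 light phase rats (yellow points) and 6 dark phase rats (grey points), with the mean and SD of each phase as a bar. CEBPB rose from a mean of 24.6 to 41.2 TPM and XBP1 from 42.8 to 60.1 TPM at ZT20, and in all 5 genes the phases overlap.

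Between the phases, CEBPB and XBP1 were higher in the dark phase, and CREM, ATF4 and JUND did not pass the test used here. The study, which tested read counts with DESeq2, had called CREM and ATF4 on the same libraries. In limma across 12513 genes, with an FDR below 0.05, 2 of the 5 members were called, where 17.7% of all genes were called (9.36% higher and 8.38% lower in the dark phase). Both came from the table of called genes, and 62.1% of the genes paired only in this way were called, so the count says nothing particular about the members. Of the 2 members paired through the table of all genes, 0 were called in limma and 1 (ATF4) had an unadjusted p below 0.05, where 23.6% of the genes paired in that way were called. A separation without overlap between phases, seen in 8.26% of all genes, was seen in none of the 5 members. Log2 fold changes are dark minus light, on the scale of log2(TPM + 0.5), which understates the change of low genes.

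CEBPB had the largest phase difference of the 5 members. In the light phase it ranged from 20.1 to 35.1 TPM with a median of 23.1 TPM, and in the dark phase from 34.8 to 51.9 TPM with a median of 39.3 TPM. Of the dark phase rats, 5 lay above all light phase rats, and the overlap came from light phase replicate 2 at 35.1 TPM against dark phase replicate 1 at 34.8 TPM. The mean rose from 24.6 ± 5.39 to 41.2 ± 6.37 TPM (SD, n = 6), by 67.6%. The log2 fold change was 0.72 (SE 0.12, 95% interval 0.46 to 0.99, limma FDR = 0.00143). These values are a description, because CEBPB was paired only through genes that the study had called on these libraries. Light phase replicate 2, where CEBPB was at its light phase maximum, is the library with the low TTR and high vascular, macrophage and erythroid marker sums. Without it the log2 fold change was 0.82 (limma FDR = 0.000194), so the difference was as large without that library. With the ratio of FPKM to TPM totals as a covariate, which itself moved with the phase, the log2 fold change was 0.56 and the call was lost (limma FDR = 0.146).

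XBP1 was also higher in the dark phase, with a wider spread. Its light phase values ranged from 30.4 to 56.5 TPM with a median of 38.1 TPM, and its dark phase values from 47.6 to 69.2 TPM with a median of 62.2 TPM. In the light phase 4 rats lay at 30.4 to 38.4 TPM, below every dark phase rat, and replicates 2 and 3 lay at 56.0 and 56.5 TPM, within the dark phase range. The mean was 42.8 ± 10.9 TPM at ZT8 and 60.1 ± 7.56 TPM at ZT20 (SD, n = 6), a rise of 40.5%. The log2 fold change was 0.49 (SE 0.14, 95% interval 0.20 to 0.79, limma FDR = 0.0264). As for CEBPB, these values are a description and no independent evidence. The call was close to the threshold and was lost in 6 of 12 fits without 1 library. Without light phase replicate 1, 4 or 6 the limma FDR was 0.0544, 0.0527 and 0.0540. Without dark phase replicate 4, 5 or 6 it was 0.0580, 0.0514 and 0.0516. The log2 fold changes of these fits were 0.45 to 0.48. With the ratio of FPKM to TPM totals as a covariate the log2 fold change was 0.29 (limma FDR = 0.517).

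CREM was the least abundant member and did not pass the test. It ranged from 9.29 to 15.4 TPM (median 13.3 TPM) at ZT8 and from 11.7 to 21.2 TPM (median 17.2 TPM) at ZT20. Dark phase replicates 2, 3 and 4 lay above every light phase rat, and the other 3 lay within the light phase range. The mean was 13.0 ± 2.04 TPM at ZT8 and 16.8 ± 3.82 TPM at ZT20 (SD, n = 6). The log2 fold change was 0.33 (SE 0.15, limma FDR = 0.163), and its 95% interval, from -0.00032 to 0.65, reached 0.

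ATF4, at 149 to 187 TPM the most abundant member, had the narrowest interval. Its light phase median was 181 TPM (149 to 187 TPM) and its dark phase median was 158 TPM (150 to 170 TPM). In the light phase 4 rats lay above all dark phase rats, at 179 to 187 TPM, and replicates 3 and 4 lay at 154 and 149 TPM. The means were 172 ± 16.3 TPM at ZT8 and 158 ± 6.84 TPM at ZT20 (SD, n = 6). The log2 fold change was -0.14 (SE 0.053, 95% interval -0.25 to -0.022, unadjusted, limma FDR = 0.0973). Without light phase replicate 3 it was -0.17 and passed the test (limma FDR = 0.0335). The study's own test on read counts had called ATF4.

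JUND did not pass the test, and its values were spread more widely at ZT8 than at ZT20. It ranged from 61.0 to 84.5 TPM (median 79.9 TPM) at ZT8 and from 70.9 to 76.0 TPM (median 74.9 TPM) at ZT20. All 6 dark phase rats lay inside the light phase range, with light phase replicate 1 at 61.0 TPM and 4 light phase rats above the dark phase maximum. The coefficient of variation was 11.6% at ZT8 and 2.59% at ZT20, a difference that was not tested. The means were 76.9 ± 8.89 and 74.5 ± 1.93 TPM (SD, n = 6). The log2 fold change was -0.058 (SE 0.075, 95% interval -0.22 to 0.11, limma FDR = 0.649), and with the ratio of FPKM to TPM totals as a covariate it was 0.082 (limma FDR = 0.750).

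**Figure D2:**
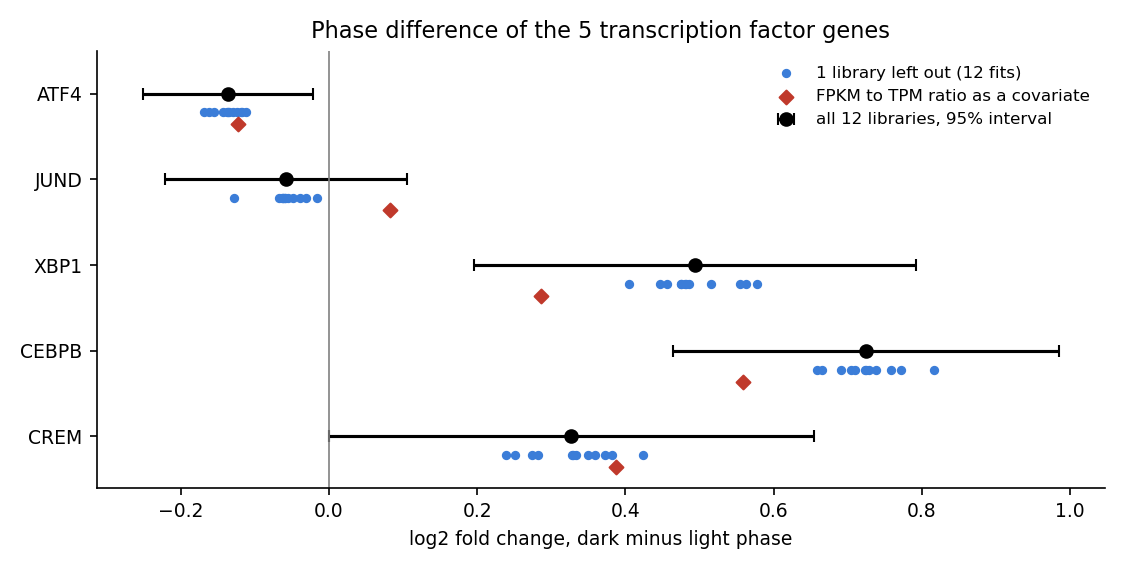
Log2 fold change, dark minus light phase (x axis), of the 5 members from all 12 libraries (black point, 95% interval), with 1 library left out (12 blue points per gene) and with the ratio of FPKM to TPM totals as a covariate (red diamond). The CEBPB and XBP1 intervals lie above 0 (0.46 to 0.99 and 0.20 to 0.79), the JUND and CREM intervals reach 0, and the covariate brings CEBPB to 0.56 and XBP1 to 0.29. CEBPB, XBP1 and CREM were paired only through genes called on these libraries, so their intervals are a description.

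No pair of members was shown to vary together across rats beyond the phase. After subtracting the phase means, deviations of the 10 pairs of members were correlated over the 12 libraries, and 0 of 10 pairs passed a permutation test within phases (100000 resamples), at an unadjusted p below 0.05 or after adjustment over the 10 pairs. The largest correlation was between ATF4 and XBP1, with Pearson r = -0.53 (permutation p = 0.151, FDR = 0.705) and Spearman rho = -0.47 (permutation p = 0.176, FDR = 0.738). Without the 2 libraries farthest from the median of ATF4, r was -0.43. Single rats moved the members differently: light phase replicate 5 was lowest in its phase for XBP1 and CREM and highest for ATF4, and light phase replicate 1 was lowest for JUND and CEBPB and highest for CREM.

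**Figure D3:**
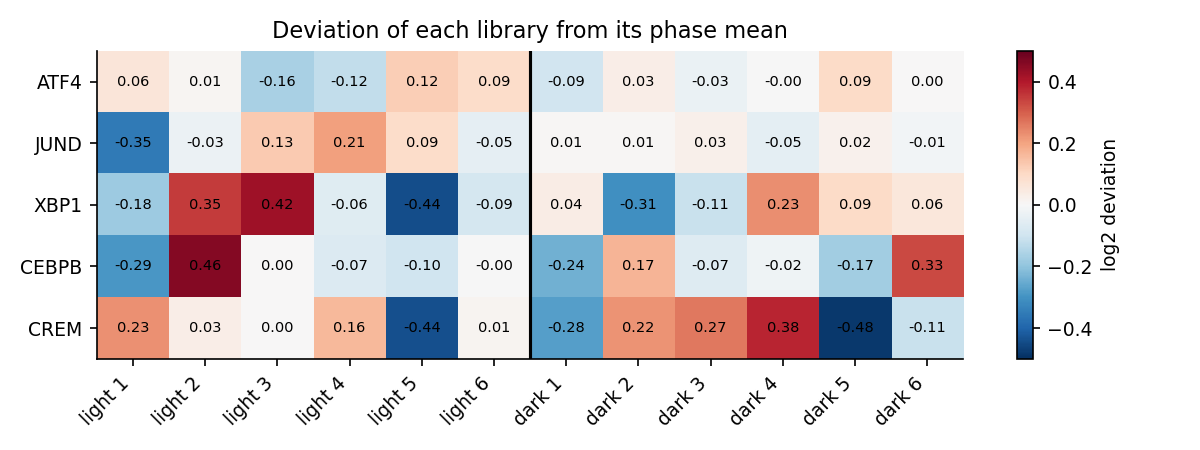
Deviation of each library from the mean of its phase, in log2 units (colour and printed value), for the 5 members (rows) in 6 light phase and 6 dark phase libraries (columns). Light phase replicate 5 is at -0.44 for XBP1 and CREM and at 0.12 for ATF4, and light phase replicate 2 is at 0.46 for CEBPB.

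For each member, the 3 named genes whose phase-centred values followed it most closely were listed among 3070 genes that averaged 10 TPM or more. They are a description over 12 libraries. Depth and marker levels differed between these libraries, and their part in the correlations was not tested. The closest 3 of 3070 genes have high correlations by selection alone. CEBPB was closest to FTL1, a ferritin subunit (r = 0.94), LMNA, a component of the nuclear lamina (r = 0.87), and RACK1, a ribosome-associated scaffold (r = 0.86). Its largest deviation was in light phase replicate 2 (0.46), and r without that library was not computed. XBP1 was closest to AABR07071395.1 (r = 0.91), the cytokine signal transducer STAT3 (r = 0.88) and the collagen chaperone SERPINH1 (r = 0.87). CREM followed KCTD15 (r = 0.90), CGGBP1 (r = 0.89) and the organic anion transporter SLC22A8 (r = 0.78). ATF4 followed UGP2 (r = 0.88), which makes UDP-glucose, SUB1, a transcriptional coactivator (r = 0.88), and TCEAL8 (r = 0.79). JUND followed the sphingosine kinase SPHK2 (r = 0.88), the UDP-galactose transporter SLC35A2 (r = 0.85) and the ribosomal protein RPS23 (r = 0.83). AABR07071395.1, STAT3, KCTD15, CGGBP1, SPHK2 and SLC35A2 were paired only through tables of called genes.

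In the wider bZIP family, DBP and TEF were lower and NFE2L1 was higher in the dark phase. The list held 53 symbols, of which 7 were paired through the table of all genes. Because that table reached only genes abundant in the light phase, genes that are high in the dark phase alone are missing from it, and the counts of this and the following lists are descriptions whose direction the choice of genes can set. Of the 7, 1 was higher and 2 were lower, where 23.6% of genes paired in that way were called, and the median log2 fold change was -0.081, against -0.036 over genes paired in that way and -0.0099 over all genes. DBP and TEF, D-box activators driven by the circadian clock, were the 2 lower genes, and both reached the table through the light phase alone. DBP fell from 194 ± 19.7 to 16.6 ± 1.41 TPM, and its log2 fold change was -3.53 (SE 0.08, limma FDR = 7.37e-12). TEF fell from 51.9 ± 6.12 to 15.1 ± 0.87 TPM, and its log2 fold change was -1.76 (SE 0.07, limma FDR = 3.5e-09), and neither gene overlapped between phases. NFE2L1, which controls proteasome genes, was the 1 higher gene, at 63.3 ± 4.27 and 70.5 ± 3.83 TPM (log2 fold change 0.14, limma FDR = 0.0397), and it kept its call without light phase replicate 2 or dark phase replicate 2 and lost it without any of the other 10 libraries (limma FDR up to 0.0882). ATF6B, CREB3, ATF4 and JUND were not called in limma.

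A further 12 bZIP genes, 3 members among them, were paired only through tables of called genes and are described without support from the test. Of the 10 that could be tested 6 were higher, 0 were lower and 4 were not called, where 62.1% of genes paired in this way were called. NFIL3, the D-box repressor, was at 1.88 to 4.26 TPM (median 2.29 TPM) at ZT8 and 12.6 to 16.6 TPM (median 14.1 TPM) at ZT20, with a log2 fold change of 2.30. The phases of NFIL3 and of DBP were thus separate and opposite in direction. CREB3L1, which raises secretory pathway and collagen genes, was at 12.8 to 16.0 TPM at ZT8 and 21.4 to 28.2 TPM at ZT20 (log2 fold change 0.80). The log2 fold change was 0.19 for CREB3L2 (limma FDR = 0.0412) and 0.16 for CREBRF, a regulator of CREB3 proteins (limma FDR = 0.0283), and both overlapped between phases. Leaving out 1 library lost the call in 8 of 12 cases for CREB3L2 and in 6 of 12 for CREBRF (limma FDR up to 0.0871 and 0.0613). MAF, DDIT3 and CREB1 were not called (log2 fold changes 0.31, 0.19 and 0.16, limma FDR = 0.0559, 0.0648 and 0.438). FOSB, an immediate early member of the AP-1 family, was close to absent, at 0 to 0.33 TPM at ZT8 and 0.10 to 0.65 TPM at ZT20, and with BATF3 it was under the limit of a mean of 1 TPM for testing.

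Of the genes that XBP1 and ATF6 are known to drive, 11 of 21 were higher in the dark phase. The list held 32 symbols, of which 21 were paired through the table of all genes. Beside the 11 higher genes 1 was lower and 9 were not called, where 23.6% of genes paired in that way were called in either direction. The phases were separate in 9 of the 21, where they were separate in 8.26% of all genes. That share was not computed for genes paired through the table of all genes. Their median log2 fold change was 0.17, against -0.036 over genes paired in that way. HSPA5 (BiP), the main chaperone of the ER, was at 429 to 591 TPM (median 482 TPM) at ZT8 and 873 to 1085 TPM (median 1006 TPM) at ZT20, with a log2 fold change of 1.01 (SE 0.07, limma FDR = 1.91e-06). CALR, a calcium-binding lectin chaperone, was at 634 to 713 TPM (median 677 TPM) and 983 to 1094 TPM (median 1061 TPM), with a log2 fold change of 0.62 (SE 0.04, limma FDR = 2.46e-07). The other 9 higher genes were the chaperones and folding factors HSP90B1, MANF, SDF2L1, PDIA6, DNAJB11, ERP44, DNAJC3, PDIA3 and CANX, with log2 fold changes of 0.17 to 0.79. SSR2, a subunit of the translocon-associated complex, was the 1 lower gene (log2 fold change -0.11, limma FDR = 0.0462), and it kept its call without light phase replicate 3 or 5 or dark phase replicate 4 and lost it without any of the other 9 libraries (limma FDR up to 0.102). The translocon genes SEC61A1, SEC61B, SEC61G, SEC63 and SSR1, the degradation factors DERL1, OS9 and HERPUD1, and P4HB were not called. A further 7 genes were paired only through tables of called genes, where 62.1% of genes were called, and their 7 higher calls are no evidence of direction. PDIA4 (log2 fold change 0.96) and HYOU1 (log2 fold change 0.90) were the largest of them. With the ratio of FPKM to TPM totals as a covariate, 7 of the 21 were higher.

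The same 7 motifs were searched in the windows of these target genes, and the ERSE was singled out after the fold changes had been seen. A window was given for 15 of the 21. The CRE core was in 7 of the 15, the ERSE in 5, the E-box in 2 (CANX and SSR1), and the other motifs in 0. The ERSE is shown at each match, read on the strand that spells CCAAT first, with the outer blocks in capitals.
HSPA5 (chr3:38452973-38452991, plus strand): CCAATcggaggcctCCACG
HSP90B1 first match (chr7:23012451-23012469, minus strand): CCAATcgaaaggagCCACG
HSP90B1 second match (chr7:23012347-23012365, plus strand): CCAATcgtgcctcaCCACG
CALR (chr19:40213135-40213153, minus strand): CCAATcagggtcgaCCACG
CANX (chr10:35158069-35158087, minus strand): CCAATcatcacgctCCACG
DNAJC3 (chr15:102432534-102432552, plus strand): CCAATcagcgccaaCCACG

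All 5 genes with an ERSE were higher at ZT20, and their log2 fold changes ran from 0.17 (CANX) to 1.01 (HSPA5) with a median of 0.62. Of the 10 target genes whose window held no exact match to the ERSE, 3 were higher and 1 was lower (log2 fold changes -0.16 to 0.37, median 0.036). Variants of the element and sites outside the window were not searched. The 6 target genes without a window held 3 higher genes (median 0.18). Of the 7 target genes with a CRE core, 5 were higher, and HERPUD1 and SEC61G were not called (median 0.28), and of the 8 without it 3 were higher and 1 was lower (median 0.058). The differences between these groups were not tested, and 4 of the 5 genes with an ERSE also held a CRE core. Across rats, phase-centred XBP1 levels had a median r of 0.10 (-0.27 to 0.75) with the 21 target genes, 12 of them above 0. The median over all genes was -0.00092. For the other members the median r with the same 21 genes was 0.11 (CREM, 12 above 0), 0.029 (JUND), -0.046 (CEBPB) and -0.25 (ATF4). No relation particular to XBP1 was therefore seen.

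**Figure D4:**
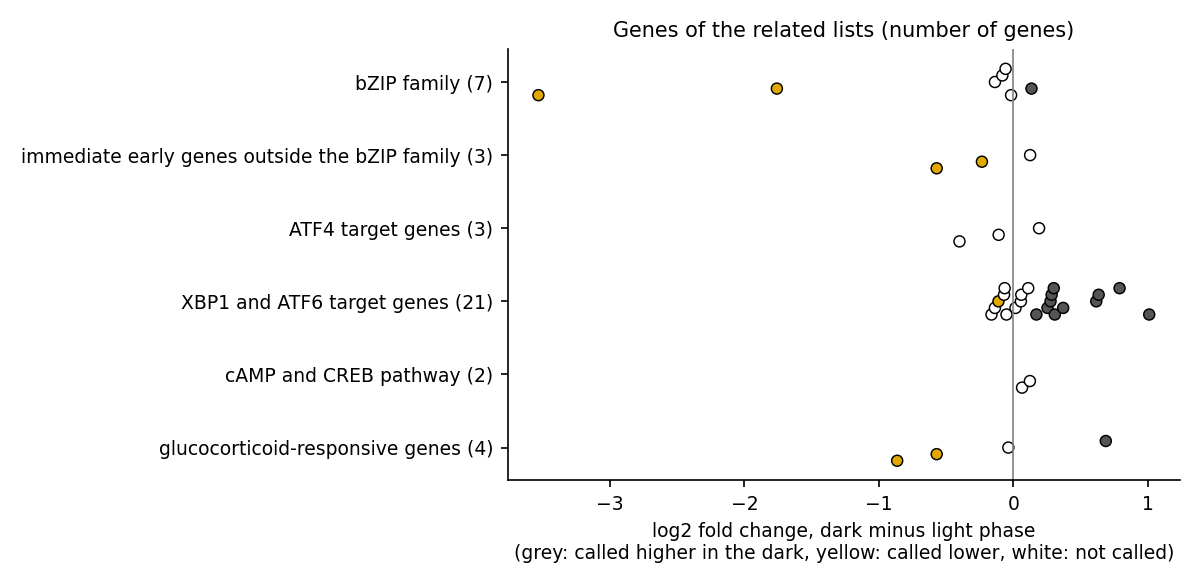
Log2 fold change, dark minus light phase (x axis), of each gene paired through the table of all genes in 6 related lists (rows, number of genes in brackets); each point is 1 gene, grey where called higher, yellow where called lower and white where not called in the dark phase. Only genes abundant in the light phase are plotted. DBP is at -3.53 and TEF at -1.76 in the bZIP row, and 11 of 21 XBP1 and ATF6 target genes are grey, up to HSPA5 at 1.01.

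Of the genes that ATF4 is known to drive, the 3 paired through the table of all genes were not called. Of 5 tested through tables of called genes only, 3 were lower in the dark phase and 2 were not called. Of all genes paired only in this way 62.1% were called, so this count says nothing particular about ATF4 target genes. Of 36 symbols, 3 were paired through the table of all genes, namely DDIT4, an inhibitor of mTOR signaling (log2 fold change 0.19), PHGDH, which starts serine synthesis (-0.40), and SLC3A2, the heavy chain of amino acid transporters (-0.11). In limma 0 of the 3 were called, where 23.6% of genes paired in that way were called, and 0 had an unadjusted p below 0.05. Through tables of called genes only, SLC7A5, the light chain that pairs with SLC3A2, was at 23.3 to 36.6 TPM (median 26.5 TPM) at ZT8 and 15.3 to 21.1 TPM (median 18.1 TPM) at ZT20, with a log2 fold change of -0.61. The neutral amino acid transporter SLC1A4 had a log2 fold change of -0.54, at mean levels of 2.03 ± 0.33 TPM at ZT8 and 1.26 ± 0.19 TPM at ZT20 (SD, n = 6). Both genes had separate phases. The phases overlapped for VLDLR, a lipoprotein receptor (log2 fold change -0.21, limma FDR = 0.0164). The 2 genes not called, DDIT3 and XPOT, had log2 fold changes in the other direction (0.19 and 0.12, limma FDR = 0.0648 and 0.138).

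Of the immediate early genes outside the bZIP family, 6 were paired, and 2 of them were lower, 3 were higher and 1 was not called in the dark phase. The list held 38 symbols. Of the 3 paired through the table of all genes, 2 were lower and 0 were higher in limma (2 had an unadjusted p below 0.05), where 23.6% of genes paired in that way were called, and GADD45G reached the table through the light phase alone. The 3 higher genes were paired only through tables of called genes, where 62.1% were called. SGK1, a kinase that regulates sodium transport, was at 108 to 177 TPM (median 150 TPM) at ZT8 and 87.6 to 113 TPM (median 102 TPM) at ZT20, with a log2 fold change of -0.57 (SE 0.10, limma FDR = 0.00176). GADD45G, a growth arrest gene, had a smaller difference (log2 fold change -0.23, limma FDR = 0.0437), and its call was lost without light phase replicate 1, 4 or 6 or dark phase replicate 2, 3, 4, 5 or 6 (limma FDR up to 0.0896). ID1 was not called (log2 fold change 0.13). Of the 3 higher genes, IER5 was at 24.4 to 36.7 TPM at ZT8 and 52.6 to 58.2 TPM at ZT20 (log2 fold change 0.87), the antiproliferative gene BTG2 had a log2 fold change of 0.52, and the mRNA decay factor ZFP36L1 of 0.31.

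The pathways that act on these factors were covered thinly. Of 30 cAMP and CREB symbols, GNAS, the stimulatory G protein subunit (log2 fold change 0.065), and PRKAR1A, a regulatory subunit of protein kinase A (0.12), were paired through the table of all genes, and limma called 0 of these 2 (1 had an unadjusted p below 0.05). Of 13 unfolded protein response sensors and eIF2 kinases, 0 were paired through the table of all genes. Of 6 cAMP and CREB genes paired only through tables of called genes, 2 were higher and 4 were not called, where 62.1% of such genes were called. The 2 were the salt-inducible kinase SIK3 and the coactivator PPARGC1A (log2 fold changes 0.18 and 0.23). Paired in the same way, the cytokine receptor IL6ST and STAT3 had log2 fold changes of 0.26 and 0.16, and MAPK14 was not called (0.10). Leaving out 1 library lost the call in 6 of 12 cases for SIK3, 10 for PPARGC1A, 9 for STAT3 and 0 for IL6ST. Of 15 glucocorticoid-responsive symbols, 4 were paired, all through the table of all genes. Of these 4, 1 was higher and 2 were lower in the dark phase, where 23.6% of genes paired in that way were called. MT1 reached the table through the light phase alone. CDKN1A, a cell cycle inhibitor, was higher (log2 fold change 0.69, SE 0.07, limma FDR = 1.92e-05). SGK1 and the metallothionein MT1 were lower (MT1 log2 fold change -0.86, SE 0.20, limma FDR = 0.0109), and GLUL was not called.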

How the data were processed

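RNA from 12 choroid plexus samples, 6 per phase and 1 per rat, was sequenced by the study (NEBNext Ultra libraries, paired-end NovaSeq). Per the submitters' processing notes the tools were STAR 2.7.9a, RSEM 1.3.3 and DESeq2 3.16, and the build was Rnor_6.0 with Ensembl release 104. TPM is the unit in which the authors deposited the RSEM estimates, and it was used without change before scaling. The FPKM values were deposited by the authors beside them and served only for the ratio of totals, the relative depth and 1 alternative. The study tested counts with DESeq2, and counts were not used here. Absolute depth is unknown, so no counting error is given.

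Each library was scaled by a trimmed mean of ratios (30% of ratios and 5% of levels trimmed), and log2(TPM + 0.5) was fitted with limma 3.58.1 (R 4.3.3, eBayes with trend, phase alone) on the 12513 genes that averaged 1 TPM or more, with Benjamini-Hochberg adjustment over all of them at an FDR of 0.05. On simulated data with 200 changed genes of 12513, 70% were recovered at a log2 size of 0.5 and 93% at 1, and 8 unchanged genes were called. The simulation changed fewer genes than were called here and drew noise independently per gene, so these shares check the code and need not hold for these libraries. On simulated libraries the relative depth was recovered with an error of up to 0.0698%. That simulation drew whole reads and kept each gene's length the same in all libraries, as the estimate assumes. It checks the code and does not give the error for these libraries. Between libraries, correlations were 0.958 to 0.983 and 0 pairs were identical. Python 3.11.15 with numpy 2.4.6, pandas 2.3.3, scipy 1.17.1 and matplotlib 3.10.9 was used for summaries, correlations and figures.

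Symbols came from 3 tables of the study. The table of all genes was held in part and paired 1997 genes, all with a light phase mean of at least 50.6 TPM (2031 tested genes reach it), so it favours genes lower in the dark phase, and 1703 more were paired only by tables of genes called on these libraries. Counts of lists are given apart for the genes paired only by tables of called genes. The members and lists were chosen with earlier results of these data known. Named are all members, the called bZIP genes, in each other list the 2 called genes with the smallest FDR per direction, the 3 genes most like each member, and genes with a value that stands apart; other list genes were named after their values were seen. Alternatives were other scalings, pseudocounts and filters, FPKM, a replicate block, sample weights, robust variances, the ratio covariate and leaving out each library. Replicate numbers do not pair the rats. Counts of 1 related list and values of 1 marker list are not reported here.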

Additional observations from a re-analysis of the deposited data

Results flagged for a closer look

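In 45 genes and 2 phases (90 groups of 6 libraries), 7 values stood apart from the rest of their phase, where chance gives about 1 in 20 groups, or 4.5 of 90. Each is the highest or lowest value of its phase, with a gap to the nearest library that exceeded 0.625 of the range of the phase.

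Light phase replicate 2 held 3 of the 7. CEBPB was at 35.14 TPM there, against 20.06 to 24.37 TPM in the other light phase rats. NFE2L1 was at 71.72 TPM, against 60.72 to 63.76 TPM, and NFIL3 at 4.26 TPM, against 1.88 to 2.66 TPM. This library also had the lowest TTR share of all TPM and the highest endothelial, mural, macrophage and erythroid marker sums of the light phase, and their part in these 3 values was not tested.

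The other 4 lay in different libraries. CANX was at 281.4 TPM in light phase replicate 1, and the nearest light phase rat was at 264.3 TPM. SDF2L1 was at 172.3 TPM in light phase replicate 3, and the nearest light phase rat was at 135.6 TPM. ZFP36L1, an mRNA decay factor, was at 46.15 TPM in dark phase replicate 1, below 52.4 to 55.84 TPM in the other dark phase rats. SIK3 was at 23.88 TPM in dark phase replicate 3, and the nearest dark phase rat was at 21.57 TPM.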

How the results depend on the processing

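The differences in CEBPB, XBP1, CREM and ATF4 kept their direction under all 24 alternatives, and JUND turned to 0.082 (limma FDR = 0.750) with the ratio of FPKM to TPM totals as a covariate. This ratio differed between the phases, so the covariate and the phase share much of their variation. With it, 0 members were called (2 in the main analysis), CEBPB was at 0.56 (limma FDR = 0.146) and XBP1 at 0.29 (limma FDR = 0.517), and 214 genes were higher and 129 lower of all genes (1171 and 1048 in the main analysis). The lists then gave 0 higher bZIP genes, 7 higher and 0 lower XBP1 and ATF6 target genes, 1 lower immediate early gene and 1 lower glucocorticoid-responsive gene. The replicate numbers do not pair the rats (deviations of same-numbered rats correlated at -0.11 to 0.05), and with the number as a block 1 member was called, XBP1 was at 0.49 (limma FDR = 0.0803), and the lists gave 0 higher bZIP genes and 0 lower XBP1 and ATF6 target genes. The lower XBP1 and ATF6 target gene was 1 in the main analysis, 0 with TPM as deposited, 0 with robust variances and 2 with scaling over genes of at least 10 TPM. Without a filter 1 immediate early gene was lower (2 in the main analysis). The cause of these changes was not tested. Leaving out each library in turn gave 1 to 3 called members, 0 to 1 higher bZIP genes, 1 to 2 lower immediate early genes, 0 to 1 higher ATF4 target genes (1 without light phase replicate 2) and 0 to 1 lower XBP1 and ATF6 target genes, and log2 fold changes of 0.66 to 0.82 (CEBPB), 0.40 to 0.58 (XBP1), 0.24 to 0.42 (CREM), -0.17 to -0.11 (ATF4) and -0.13 to -0.02 (JUND). Over all alternatives the limma FDR ran from 0.000194 to 0.146 for CEBPB, 0.00897 to 0.517 for XBP1, 0.0569 to 0.438 for CREM, 0.0335 to 0.485 for ATF4 and 0.0848 to 0.908 for JUND. The 11 higher XBP1 and ATF6 target genes of the main analysis were 11 in each fit without 1 library. Read counts are not known, so depth limits cannot be set for single genes.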
